A study of Mus musculus with 8 samples.

Results

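Phospholipid scramblases, 6 genes out of the 24063 in the count files, were measured in tubuloids, which are tubule-like structures grown in Matrigel from fragments of postnatal mouse kidney. The 6 genes were Plscr1, Plscr2, Plscr3 and Plscr4 of the Plscr family, Xkr8 and Ano6. They were found by gene symbol, and the counts of all transcripts of a symbol were added up. Plscr2 was chosen by its measured difference in normalised count between the groups in these same libraries, so that difference is given as a description without a test. The other 5 genes were taken for their known or proposed function. All 6 had counts and passed the filter on low values.

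The kidneys came from mice aged postnatal day 7 to day 10 according to the sample labels, while the study's methods give a somewhat younger range. All 8 libraries had the genotype Pkd2fl/fl Pax8rtTA TetOCre mTmG, so both groups carried the floxed alleles of Pkd2, the Cre system and the color reporter. Cultures received doxycycline (DOX, n=4, libraries 9, 12, 19 and 21) or the solvent dimethyl sulfoxide (DMSO, n=4, libraries 3, 5, 15 and 20) for 3 days from day 3, and RNA was taken on day 7. DOX induces Cre only where the Pax8 promoter, an epithelial promoter in kidney, is active, so other cells in the culture keep Pkd2. The labels do not tie libraries to animals or litters, and p-values therefore measure only the spread between these samples, which may be technical.

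Cells keep phosphatidylserine on the inner side of the plasma membrane. Flippases pump it inward, floppases move lipids outward, and scramblases let lipids cross in both directions when calcium rises or when caspases are active. Phosphatidylserine on the outer side is read by clotting factors and by phagocytes, and in injured kidney tubules it marks dying cells for clearance by their neighbors. Ano6 is a calcium-activated ion channel and scramblase of the plasma membrane, and Xkr8 is a scramblase that caspases switch on in apoptosis. Plscr1, the founding member of the Plscr family, is induced by interferon, and also enters the nucleus. Plscr3 is found at mitochondria. Plscr2 and Plscr4 are less well described, and whether the Plscr proteins scramble lipids in living cells is disputed.

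Summed counts per library ran from 63922677 to 102716313. Reads in exons shared by isoforms appeared to be counted for each isoform, since isoforms of a gene had nearly equal counts, and with 1 transcript per gene the totals ran from 39252852 to 64561676. DMSO 20 had 13243 detected genes and DOX 19 had 13599, against 17054 to 17903 in the other 6 libraries. Pkd2, the targeted gene, had normalised counts of 6128, 4813, 6039 and 7538 in DMSO libraries 3, 5, 15 and 20, and of 4136, 5072, 5952 and 4624 in DOX libraries 9, 12, 19 and 21. The groups overlapped (log2 fold change -0.31, SE 0.215, adjusted p=0.999 by DESeq2). These counts cover the whole transcript, so reads from exons that Cre does not remove are included. They measure RNA, whereas the study reported less Pkd2 protein on western blots of tubuloids after DOX. In the study that protein was still detectable, and cells without the color switch remained in differentiated structures.

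Plscr1, Plscr2, Plscr4 and the barely detected Plscr5 are neighbors. On GRCm38, RefSeq places Plscr1 at chr9:92250194-92272561 and Plscr2 at chr9:92275602-92297752, on the same strand and 3040 bases apart. Plscr5 lies at chr9:92186516-92212536 on the other side of Plscr1, and Plscr4 at chr9:92457372-92493513, 159619 bases past Plscr2. The other members are elsewhere, Plscr3 at chr11:69846372-69852058, Xkr8 at chr4:132724901-132732614 and Ano6 at chr15:95790843-95975472. The coding sequences of Plscr1 and Plscr2 were 82.7% identical over 921 aligned bases, while the other pairs among Plscr1 to Plscr4 were 58.4% to 65.6% identical.

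Because Plscr1 and Plscr2 are so alike, 2 pairs of coding stretches as long as 1 read (75 bases) are shown to let a reader see how well reads can be told apart. Capitals mark the bases that differ. The first pair is the most alike stretch found within 1 exon of both genes, exon 6 of Plscr1 at chr9:92266535-92266609 and exon 5 of Plscr2 at chr9:92290783-92290857, on the plus strand of GRCm38.
Plscr1, most alike: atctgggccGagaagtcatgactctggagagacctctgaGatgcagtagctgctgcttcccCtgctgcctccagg
Plscr2, most alike: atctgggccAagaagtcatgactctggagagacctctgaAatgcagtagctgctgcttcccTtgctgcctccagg
The second pair is the least alike stretch, exon 4 of Plscr1 at chr9:92263087-92263161 and exon 3 of Plscr2 at chr9:92287626-92287700.
Plscr1, least alike: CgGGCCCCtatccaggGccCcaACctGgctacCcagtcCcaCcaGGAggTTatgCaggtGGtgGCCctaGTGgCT
Plscr2, least alike: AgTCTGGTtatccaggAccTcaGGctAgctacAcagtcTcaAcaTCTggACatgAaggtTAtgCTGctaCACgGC
The first pair differed at 3 bases and the second at 31. Over 751 aligned windows the median was 9.0 differences and the fewest was 2, found in 13 windows. None of the 1826 windows of the Plscr2 transcript occurred without a difference in the Plscr1 transcript (0 windows), and the longest run they shared was 37 bases. The counting settings are not given in the sources used here, so how reads near these shared stretches were assigned is not known.

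The 6 genes differed widely in level. Levels are given in TPM (transcript abundance scaled to a fixed total per library), which are corrected for transcript length and can be compared between genes. Summed over transcripts, the mean of all 8 libraries was 362 TPM for Plscr2 (SD 85.5), 191 TPM for Plscr1 (SD 41.8), 141 TPM for Plscr3 (SD 23.0) and 97.2 TPM for Ano6 (SD 20.3). Plscr4 had 7.25 TPM (SD 3.18) and Xkr8 had 1.44 TPM (SD 0.682). On the log2(TPM + 1) scale, 14 of 15 pairs of genes were ordered the same way in all 8 libraries (exact two-sided sign-flip test, adjusted p=0.00837 over 15 pairs, where 0.00781 is the smallest raw p that 8 libraries allow). The exception was Plscr1 over Plscr3, with a mean log2 level difference of 0.42 (SD 0.468), higher in 6 of 8 libraries (exact sign-flip test, adjusted p=0.0469). That call was lost when any one of DMSO 3, DMSO 5, DMSO 20, DOX 9, DOX 12 or DOX 21 was left out, with adjusted p from 0.0625 to 0.0938 by the same exact test. The log2 level difference itself was 0.35 to 0.43 in those refits, with 7 libraries in place of 8.

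The upper part of this order depends on how isoforms are counted. Plscr2 has 2 transcripts in the files, Ano6 has 2 and Plscr3 has 3, and each transcript carried nearly the same reads, whereas Plscr1, Plscr4 and Xkr8 have 1 each. With 1 transcript per gene, Plscr1 had 191 TPM and Plscr2 had 181 TPM, a mean log2 level difference of 0.08 (SD 0.332), with Plscr1 higher in 5 of 8 libraries (exact sign-flip test, adjusted p=0.494). Ano6 then had 48.4 TPM and Plscr3 had 45.6 TPM, a mean log2 level difference of -0.07 for Plscr3 minus Ano6 (SD 0.383), with Plscr3 higher in 3 of 8 libraries (exact sign-flip test, adjusted p=0.602). The remaining 13 pairs, Plscr1 and Plscr3 now among them, were ordered the same way in all 8 libraries (exact sign-flip test, adjusted p=0.00901). Over all 8 libraries, neither of these pairs was separated beyond its spread on this scale. The order of Plscr1 and Plscr2 was not the same in both groups, however: the ratio of Plscr2 to Plscr1 was 0.942, 1.0, 1.33 and 1.28 in DMSO 3, 5, 15 and 20, and 0.791, 0.78, 0.93 and 0.696 in DOX 9, 12, 19 and 21. Plscr1 was the higher of the pair in all 4 DOX libraries, which is a description, since Plscr2 was chosen by its difference between the groups. On both scales Plscr4 stood above Xkr8, by a mean log2 level difference of 1.74 (SD 0.682). That difference depends on the pseudocount, and it was 2.50 with a pseudocount of 0.1 and 2.80 on the scale of log2(normalised count per kilobase + 1).

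**Figure D1:**
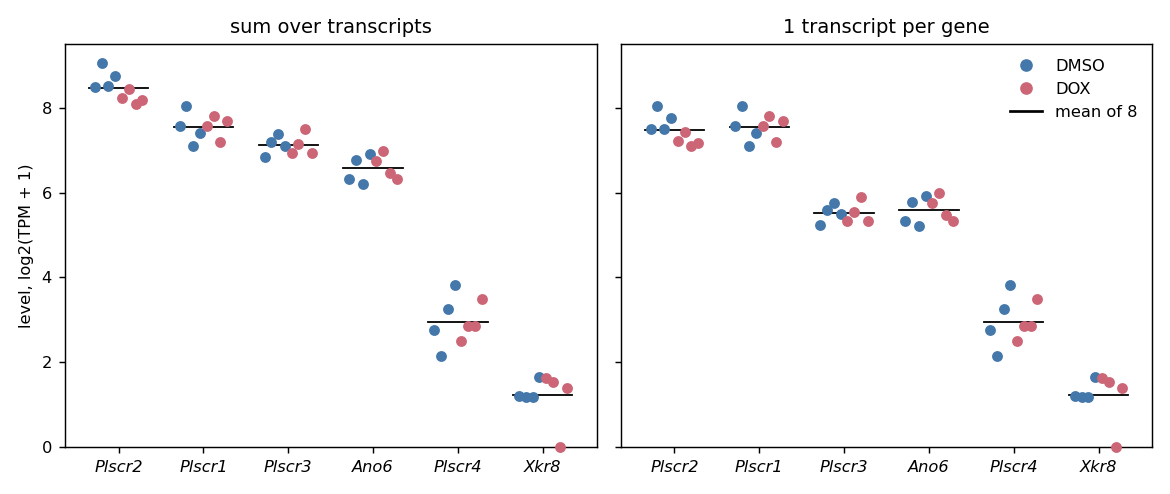
Level of each scramblase gene in each of the 8 libraries, as log2(TPM + 1), with TPM summed over transcripts (left) and taken from 1 transcript per gene (right). Blue points are DMSO, red points are DOX, and the black line is the mean of 8 libraries. Plscr2 stands above Plscr1 and Plscr3 above Ano6 on the left, and both pairs draw level on the right.

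Plscr2 was lower in every DOX library than in every DMSO library. Normalised counts (counts divided by the size factor of the library) were 32082 in DMSO 3, 37359 in DMSO 5, 32693 in DMSO 15 and 32003 in DMSO 20. They were 23685 in DOX 9, 22774 in DOX 12, 22117 in DOX 19 and 22843 in DOX 21. The groups did not overlap, DMSO 5 stood above the other DMSO libraries, and the DOX libraries lay close together. The means were 33534 ± 2569 (SD, n=4) in DMSO and 22855 ± 643 (SD, n=4) in DOX, a log2 difference of -0.55, or 0.682 of the DMSO level. Of 17633 genes with mean counts of 2 or more, 190 (1.08%) were lower in every DOX library than in every DMSO library, and 2.71% were separated in either direction. Plscr2 was picked for this difference, so its place among those genes carries no further information. In a bulk culture, fewer cells that express a gene and less RNA per cell cannot be told apart. No culture without the Cre system received DOX, so effects of DOX itself, of Cre and of Pkd2 loss cannot be told apart either.

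The 2 Plscr2 transcripts gave the same picture because the files do not separate them. Their counts were equal in 6 of 8 libraries and differed by 1 count in DMSO 5 and in DOX 12. Neither the longer transcript (1900 bases) nor the shorter (1895 bases) held less than 49.998% or more than 50.002% of the gene's count in any library. In the GENCODE M21 annotation the 2 models start at the same base, chr9:92275602, and their first exon ends at 92276018 or at 92276013, which leaves 5 bases of the 5′ untranslated region to tell them apart. Such pairs were common: of 2062 genes with 2 transcripts and at least 1000 counts, 321 had transcripts that differed by at most 1 count in every library. Which Plscr2 transcript is used, and whether DOX alters it, was therefore not measurable in these files.

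Plscr1, the close neighbor and nearest relative of Plscr2, showed no such separation. Its normalised counts were 19180, 21015, 13844 and 14073 in DMSO 3, 5, 15 and 20, and 16864, 16454, 13397 and 18505 in DOX 9, 12, 19 and 21. The DOX values lay within the range of the DMSO values except for DOX 19, which was the lowest of all. The means were 17028 ± 3624 (SD, n=4) and 16305 ± 2131 (SD, n=4), or a log2 change of -0.06 (SE 0.222, 95% interval -0.50 to 0.37, adjusted p=0.999 by DESeq2). The ratio of Plscr2 to Plscr1 within a library, from summed TPM, was 1.89, 2.01, 2.66 and 2.57 in DMSO 3, 5, 15 and 20, and 1.58, 1.56, 1.86 and 1.39 in DOX 9, 12, 19 and 21. The ranges of this ratio did not overlap, though DOX 19 came close to DMSO 3. Because Plscr2 enters the ratio, this is again a description. Plscr5, the fifth family member, had 3 counts in DMSO 15, 2 in DOX 12 and 0 elsewhere.

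Plscr3, the mitochondrial family member, set 1 library in each group apart. Normalised counts were 15439, 15458, 22520 and 15258 in DMSO 3, 5, 15 and 20, and 14679, 14094, 22340 and 14602 in DOX 9, 12, 19 and 21. DMSO 15 and DOX 19 were high and nearly equal, and the other 6 libraries lay between 14094 and 15458. The log2 fold change was -0.06 (SE 0.252, 95% interval -0.56 to 0.43, adjusted p=0.999 by DESeq2).

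Plscr4 was expressed far below Plscr1, Plscr2 and Plscr3 and varied more. Normalised counts were 877, 409, 1316 and 1667 in DMSO 3, 5, 15 and 20, and 630, 697, 866 and 1386 in DOX 9, 12, 19 and 21. The lowest and the highest library were both DMSO, so the DMSO range enclosed the DOX range. The log2 fold change was -0.25 (SE 0.494, 95% interval -1.22 to 0.71, adjusted p=0.999 by DESeq2).

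Ano6, the calcium-activated scramblase, was the steadiest of the 6. Normalised counts were 21073, 22860, 19670 and 26582 in DMSO 3, 5, 15 and 20, and 25090, 24616, 21295 and 18574 in DOX 9, 12, 19 and 21. The groups overlapped over most of their range. The log2 fold change was -0.01 (SE 0.181, 95% interval -0.36 to 0.34, adjusted p=0.999 by DESeq2). Over all 8 libraries the SD of its log2 normalised count was 0.18, and 2.43% of 13248 genes with a mean normalised count of at least 100 had a smaller SD. The SD was 0.24 for Plscr1, 0.28 for Plscr3, 0.30 for Plscr2, 0.67 for Plscr4 and 2.89 for Xkr8, against a median of 0.53 over those genes.

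Xkr8, the caspase-activated scramblase, was the lowest of the 6 and was missing from 1 library. Normalised counts were 257, 201, 252 and 352 in DMSO 3, 5, 15 and 20, and 368, 274, 0 and 283 in DOX 9, 12, 19 and 21. DOX 19 had no count, while the raw counts of the other libraries ran from 199 to 433, and the remaining libraries of both groups overlapped. A floor of 3 counts in DOX 19, which covers counting error only, corresponds to a normalised count of 3.38. The next lowest library, DMSO 5, was 59.3-fold above that floor. The log2 fold change was -0.20 (SE 1.17, 95% interval -2.49 to 2.10, adjusted p=0.999 by DESeq2), and it was 0.23 without DOX 19. Of 28 other genes whose raw counts in the other 7 libraries all lay in that range of 199 to 433, 4 (14.3%) had no count in DOX 19. The share was 2 of 24 genes (8.33%) in DMSO 20, the other library with few detected genes, and 0 in each of the other 6 libraries.

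**Figure D2:**
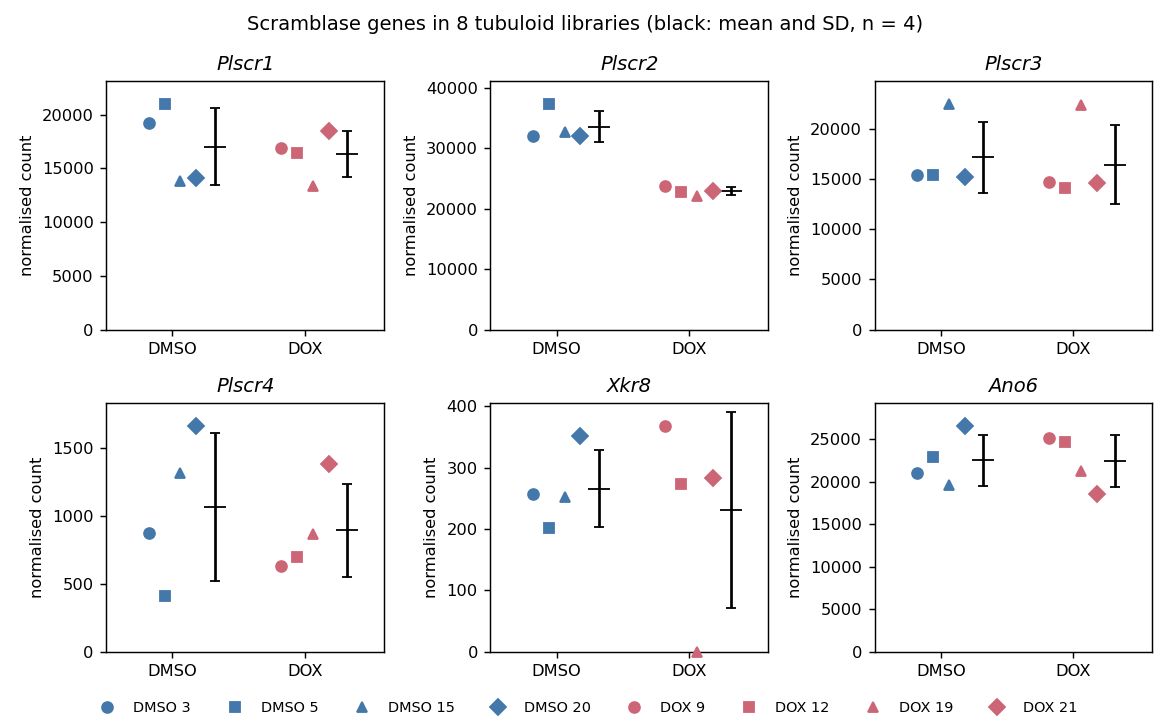
Normalised count of the 6 scramblase genes in each library, with a separate linear axis from 0 for each gene. Blue symbols are DMSO, red symbols are DOX, and black bars are the mean and SD of 4 libraries. Plscr2 is the only one of the 6 genes whose groups do not overlap, Plscr3 has 1 high library in each group, and Xkr8 is at 0 in DOX 19.

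Of the 5 genes that could be tested (Plscr1, Plscr3, Plscr4, Xkr8 and Ano6), 0 met the threshold of DESeq2 (adjusted p up to 0.05 and a change of 1.5-fold or more). Among all genes tested, 25 of 17011 (0.147%) were called, 14 (0.0823%) higher and 11 (0.0647%) lower in DOX. The quasi-likelihood test of edgeR also called 0 of these 5 genes, against 0 of 15562 genes in the whole table, and neither tool gave any of the 5 an unadjusted p under 0.05 (0 genes), a level reached by 4.67% of all genes in DESeq2 and 3.06% in edgeR. The intervals above leave room for changes of more than 1.5-fold in Plscr4 and Xkr8, and for smaller ones in Plscr1, Plscr3 and Ano6.

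The share of Plscr2 among the 6 genes restates the difference for which it was chosen and is given as a description. Plscr2 made up 47.9%, 50.4%, 48.6% and 49.6% of their summed TPM in DMSO 3, 5, 15 and 20, and 41.4%, 41.1%, 39.2% and 40.8% in DOX 9, 12, 19 and 21. The mean share was 49.1% ± 1.08 (SD, n=4) in DMSO and 40.6% ± 0.954 (SD, n=4) in DOX, without overlap. With 1 transcript per gene the shares were 41.9% ± 1.71 (SD, n=4) and 33.9% ± 0.907 (SD, n=4). The 6 genes together had 747 to 1055 TPM in DMSO libraries and 694 to 845 TPM in DOX libraries, with overlap.

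Genes whose pattern over the 8 libraries was nearest to that of Plscr2 were found by the root mean square difference of log2 normalised counts after subtracting each gene's own mean. Among 13247 genes, those near it included Rp2h, whose product regulates a small GTPase of cilia, at 0.137, Psma1, a proteasome subunit, at 0.152, Slc44a2, a choline transporter, at 0.152 and Mif4gd at 0.153. The median over all genes was 0.579, and a gene with no variation at all would be at 0.284. Plscr1 was at 0.313 (rank 803), Ano6 at 0.321 (rank 927), Plscr3 at 0.373 (rank 1854), Plscr4 at 0.711 (rank 8298) and Xkr8 at 2.61 (rank 11690). All 5 other members were thus farther from Plscr2 than a constant gene would be. Since the pattern of Plscr2 includes the group difference for which it was picked, these distances are a description.

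**Figure D3:**
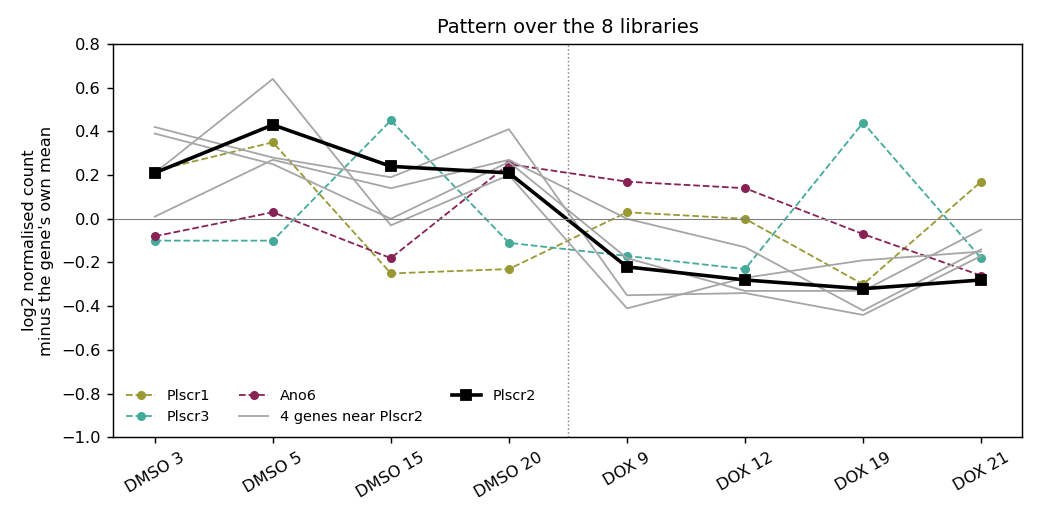
Log2 normalised count minus the gene's own mean over the 8 libraries, for Plscr2 (black), 4 genes near it (grey lines) and Plscr1, Plscr3 and Ano6 (dashed). Plscr2 lies between 0.21 and 0.43 in DMSO libraries and between -0.32 and -0.22 in DOX libraries, while the 3 dashed genes cross 0 within at least 1 group.

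Other scramblases did not pass the test either, in a list that also holds relatives such as the chloride channel Ano1. Of the 17 genes tested by adjusted p, 0 were called in DESeq2 or in edgeR. The list's median log2 fold change was -0.11 (-0.25 without DOX 12 to -0.05 without DMSO 5), against -0.07 over all genes. The most abundant was Vmp1, a scramblase of the endoplasmic reticulum needed for autophagy, at 249 ± 69.1 TPM (SD, n=4) in DMSO and 203 ± 8.78 TPM (SD, n=4) in DOX. Ano1, a calcium-activated chloride channel from the same family as Ano6, had 122 ± 62.7 TPM (SD, n=4) in DMSO and 103 ± 34.0 TPM (SD, n=4) in DOX, with 32.9 TPM in DMSO 15. Atg9a, the scramblase of autophagosome formation, had 66.4 ± 18.4 TPM (SD, n=4) and 62.0 ± 21.8 TPM (SD, n=4). Ano10 had 59.8 ± 14.9 TPM (SD, n=4) and 77.3 ± 21.1 TPM (SD, n=4). The 6 relatives of Xkr8 in the list, named after their values were seen, were low: Xkr5 had 0 to 5.58 TPM, Xkr6 up to 1.47 TPM, Xk up to 0.735 TPM, Xkr9 up to 0.268 TPM and Xkr4 up to 0.21 TPM, and Xkr7 had no count in any library.

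Partners and activators of the scramblases gave 0 calls among 7 tested genes (DESeq2 and edgeR, with a median log2 fold change of -0.12 that ran from -0.22 without DOX 21 to 0.00031 without DMSO 20). Bsg and Nptn, the chaperones that carry Xkr8 to the plasma membrane, had 1452 ± 557 TPM (SD, n=4) and 322 ± 91.7 TPM (SD, n=4) in DMSO, and 1258 ± 259 TPM (SD, n=4) and 312 ± 49.9 TPM (SD, n=4) in DOX, levels far above that of Xkr8 itself. Casp8, an initiator caspase, had 122 ± 19.6 TPM (SD, n=4) in DMSO and 147 ± 21.6 TPM (SD, n=4) in DOX.

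Flippases, which work against scramblases, were expressed in both groups with 0 calls among 16 genes (DESeq2 and edgeR, with a median log2 fold change of -0.04 that ran from -0.27 without DOX 21 to 0.11 without DMSO 5). Tmem30a, the chaperone that most flippases need, had 130 ± 10.5 TPM (SD, n=4) in DMSO and 116 ± 21.0 TPM (SD, n=4) in DOX. Atp11a, a plasma membrane flippase that caspases cut, had 65.3 ± 20.8 TPM (SD, n=4) and 65.7 ± 28.0 TPM (SD, n=4). Atp9b and Atp9a, flippases of inner membranes, had log2 fold changes of 0.29 (SE 0.238) and -0.13 (SE 0.369).

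ABC lipid exporters had 0 calls among 7 genes (DESeq2 and edgeR), although 5 of the 7 fitted log2 fold changes were above 0 and the median was 0.57. That median was 0.37 without DOX 19, 0.25 without both DMSO 20 and DOX 19, and 0.81 without DMSO 15. Abcb1a, one of the mouse genes for the drug exporter P-glycoprotein, had 10.9, 4.73, 7.34 and 13.4 TPM in DMSO 3, 5, 15 and 20, and 23.0, 16.6, 12.8 and 36.4 TPM in DOX 9, 12, 19 and 21. Only DOX 19 fell within the DMSO range. The log2 fold change was 1.21 (SE 0.484), which did not pass the test (adjusted p=0.69 by DESeq2). Abcb4, a phosphatidylcholine exporter, was the other exporter with an unadjusted p under 0.05 and is named after its values were seen. It gave a log2 change of 1.42 (SE 0.715, adjusted p=0.942 by DESeq2), with 3.98 TPM in DOX 19 and 0.481 to 0.993 TPM in the other 7 libraries. Abcc1, Abca7 and Abcb1b had log2 fold changes of -0.02, 0.36 and -0.39.

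Bridging molecules and receptors for phosphatidylserine gave 0 calls among 15 genes (DESeq2 and edgeR, with a median log2 fold change of 0.11 that ran from -0.14 without DMSO 5 to 0.46 without DMSO 15). Mfge8, a secreted protein that links phosphatidylserine to integrins on the eating cell, had 379 ± 47.2 TPM (SD, n=4) in DMSO and 515 ± 108 TPM (SD, n=4) in DOX, with a log2 change of 0.32 (SE 0.232, adjusted p=0.999 by DESeq2). Itgb5, a subunit of such an integrin, had 474 ± 236 TPM (SD, n=4) and 696 ± 158 TPM (SD, n=4). Anxa5, which binds phosphatidylserine, and Axl, a receptor tyrosine kinase that reads it through a bridging ligand, had log2 fold changes of 0.26 (SE 0.312) and 0.15 (SE 0.551).

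Enzymes that make phosphatidylserine and phosphatidylethanolamine gave 0 calls among 8 genes (DESeq2 and edgeR, with a median log2 fold change of -0.03 that ran from -0.10 without DMSO 15 to 0.05 without DMSO 5, and was 0.12 without both DMSO 20 and DOX 19). Ptdss1 and Ptdss2, the phosphatidylserine synthases, had 43.3 ± 13.1 TPM (SD, n=4) and 32.1 ± 8.06 TPM (SD, n=4) in DMSO, and 45.2 ± 8.98 TPM (SD, n=4) and 39.6 ± 3.06 TPM (SD, n=4) in DOX. Cept1 and Pisd had log2 fold changes of 0.02 and -0.04. Pcyt2, an enzyme of phosphatidylethanolamine synthesis named after its values were seen, was the one gene of this list with an unadjusted p under 0.05. It gave a log2 change of -1.22 (SE 0.504, adjusted p=0.753 by DESeq2), and its groups overlapped.

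Interferon-induced genes were looked at because Plscr1 is one. They gave 0 calls among 17 genes (DESeq2 and edgeR), and 12 of 18 fitted log2 fold changes were below 0, with a median of -0.37 that ran from -0.91 without DOX 9 to -0.19 without DMSO 20. Irf1, an interferon-induced transcription factor, had 80.6 ± 20.9 TPM (SD, n=4) in DMSO and 54.1 ± 21.3 TPM (SD, n=4) in DOX, with a log2 change of -0.67 (SE 0.304, adjusted p=0.845 by DESeq2). Stat2, part of the interferon signal and named after its values were seen, gave a log2 change of -0.87 (SE 0.422, adjusted p=0.898 by DESeq2). These were the 2 genes of the list with an unadjusted p under 0.05. Bst2 and Irf9 had log2 fold changes of -0.17 and -0.49.

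**Figure D4:**
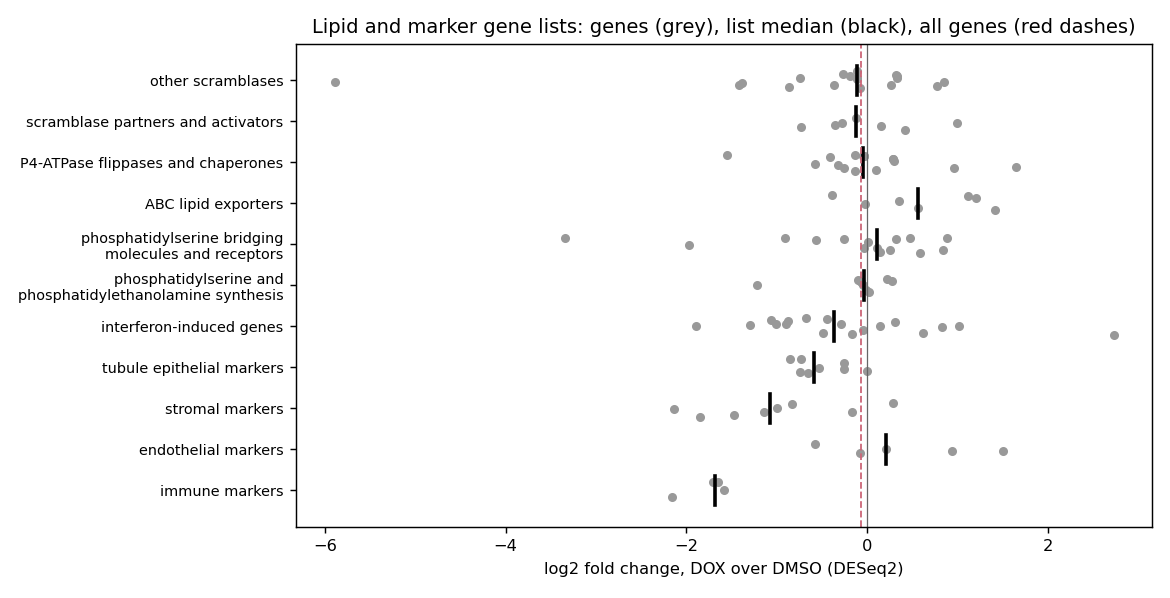
DESeq2 log2 fold change of DOX over DMSO for those genes of 11 lists that DESeq2 gave a p (grey points), with the median of each list (black) and of all genes (red dashes, -0.07). No gene of these lists was called; the list medians run from -1.68 for immune markers to 0.57 for ABC lipid exporters with all libraries, and are -0.37 without DMSO 15 and 0.37 without DOX 19, respectively.

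Markers of the cell types in the cultures varied between libraries, and their part in the values above was not tested. Tubule epithelial markers, led by Cldn7, Krt18, Krt8 and Epcam, summed to 560 to 2628 TPM in DMSO and 779 to 1742 TPM in DOX, and none of the 8 markers was at 0 in any library. All 8 fitted log2 fold changes were below 0, with 0 called in DESeq2 or edgeR. Their median was -0.59, and it was -0.14 without DMSO 5, -0.21 without DMSO 3, -0.38 without DOX 21 and -0.88 without DMSO 15. Stromal markers, led by Col3a1, Acta2, Col1a2 and Pdgfrb, summed to 301 to 3827 TPM in DMSO and 644 to 1030 TPM in DOX (median log2 fold change -1.07, but 0.03 without DMSO 15 and -1.43 without DMSO 5; 0 of 8 called), and Dcn was at 0 in DMSO 20 and Lum in DOX 19. Col1a1 was the stromal marker with an unadjusted p under 0.05 and is named after its values were seen (log2 fold change -1.85, SE 0.871, adjusted p=0.873 by DESeq2). DMSO 15 had the lowest epithelial and the highest stromal sum of all 8 libraries. Endothelial markers summed to 22.7 to 64.7 TPM in DMSO and 29.0 to 161 TPM in DOX, nearly all of it from Emcn, while Pecam1, Cdh5, Kdr and Tek stayed below 1 TPM in every library and each was at 0 in at least 1 (median log2 fold change 0.21, but -0.25 without DOX 21 and 1.05 without DMSO 5; 0 of 5 called). Immune markers summed to 15.9 to 29.4 TPM in DMSO and 0.0068 to 12.2 TPM in DOX, without overlap, and were led by Cd68, Ptprc, Lyz2 and Tyrobp. Among all genes with mean counts of 2 or more, 2.71% were separated in either direction. Different genes led the sum in different libraries: Ptprc held 22.3 of 29.4 TPM in DMSO 5, and Cd68 held 23.3 of 26.0 TPM in DMSO 20. In DMSO 15 most of the sum of 20.7 TPM came from Lyz2 (13.3 TPM) and Tyrobp (3.4 TPM), and without these genes DMSO 15 would lie within the DOX range. DESeq2 gave neither of them a p, and the list's median leaves them out. Ptprc and Cd68 were at 0 in DOX 19, Lyz2 in DMSO 20 and DOX 19, and Adgre1 in every library except DMSO 15 (median log2 fold change -1.68, but -0.37 without DMSO 15; 0 of 3 genes with an adjusted p called). Whether immune cells contribute Plscr2 RNA was not tested.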

How the data were processed

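RNA of 8 tubuloid cultures was sequenced by the authors from poly-A selected SMART-Seq v4 libraries as paired 75-base reads, with 4 samples on each flow cell lane; lanes are not given per sample and were not used. The submitters' processing notes name STAR, featureCounts, DESeq2, mm10 and GRCm38, and versions and counting settings are not given in the sources used here. The authors deposited, for each of 33068 RefSeq transcripts, a count of reads and the FPKM and TPM made from it. The deposited count is a whole number and was not normalised by the authors. The deposited TPM corrects that count for transcript length and library total. FPKM, which the authors deposited beside TPM, was not used.

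Counts and TPM were summed by symbol. The main comparison (DOX over DMSO) used DESeq2 1.42.0 in R 4.3.3 and its Wald test across all genes, with median-of-ratios size factors, the Cook filter, independent filtering at alpha 0.1 and Benjamini-Hochberg adjustment. A second fit used edgeR 4.0.16 (quasi-likelihood test). Called genes had adjusted p values up to 0.05 and changed 1.5-fold or more. The fits were checked on simulated data. The members and lists were chosen with earlier results of these data known. Plscr2 has no p because its difference led to its choice. Levels of genes were compared by an exact two-sided sign-flip test on log2(TPM + 1) over 8 libraries. From 11 lists of 121 genes, of which 3 were matched by an older symbol, every called gene and up to 4 genes with the highest mean TPM are named, together with the 5 genes nearest in pattern to Plscr2 (mean normalised count of at least 100) and Pkd2; Plscr5, Dcn, Lum, Cdh5 and Adgre1, and the genes so marked in the text, were named after their values were seen. Some genes that this rule picks are not reported here. Gene coordinates are from RefSeq on GRCm38.p6, and transcripts, exons and sequences from GENCODE M21 on GRCm38, aligned with Biopython 1.88. Library numbers are those of the sample titles. Depth and detected genes are given with the results, and the floor of 3 counts used for the Xkr8 count of 0 covers counting error only. Alternatives were edgeR, TMM size factors, at least 10 counts in every library, 1 transcript per gene, no Cook filter, leaving out DMSO 20 and DOX 19, leaving out each library, and, for levels, a pseudocount of 0.1 and normalised counts per kilobase.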

Additional observations from a re-analysis of the deposited data

Results flagged for a closer look

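In a group of 4, a library stands apart when its gap to the nearest library, as a share of the range, is above Dixon's 95% limit. Among 12 groups (6 genes in DOX and in DMSO) 4 such libraries were found. With normal, independent values about 1 in 20 groups, or 0.6 here, would be flagged. The same share over all genes was not computed, so this count is not a result about scramblases. For Plscr2, DMSO 5 had a log2 normalised count of 15.19 against 14.97 to 15.00 in the other DMSO libraries (gap share 0.862), and the log2 difference between DOX and DMSO was -0.49 without it. For Plscr3, DMSO 15 had 14.46 against 13.90 to 13.92 (gap share 0.966) and DOX 19 had 14.45 against 13.78 to 13.84 (gap share 0.912). The Plscr3 log2 fold change was 0.10 without DMSO 15 and -0.24 without DOX 19, with DESeq2 adjusted p of 0.98 and 1.0. For Xkr8, DOX 19 was at 0 against 8.11 to 8.53 (gap share 0.951).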

How the results depend on the processing

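No paired analysis was possible because the library numbers in the titles are not shared between DOX and DMSO. The log2 difference of Plscr2 was -0.58 (without DMSO 20) to -0.49 (without DMSO 5) over 14 alternatives. Its groups, which do not overlap, and its choice by this difference fix the direction, so the kept direction is no sign of stability. None of the 5 tested members was called under any alternative (0 genes, smallest DESeq2 or edgeR adjusted p 0.9), but in 13 of 69 refits the sign of a small fold change turned. With DMSO 20 and DOX 19 left out, the log2 fold change was 0.07 for Plscr4, 0.40 for Xkr8 and 0.12 for Ano6. Plscr3 kept its sign in that refit and moved to -0.29. Leaving out each library gave -0.15 to 0.06 for Plscr1 (0.0013 without DMSO 3, 0.06 without DMSO 5, 0.03 without DOX 19), -0.24 to 0.10 for Plscr3 (0.10 without DMSO 15, 0.0047 without DOX 12), -0.54 to 0.04 for Plscr4 (0.04 without DMSO 20), -0.51 to 0.23 for Xkr8 (0.23 without DOX 19) and -0.07 to 0.08 for Ano6 (0.08, 0.02 and 0.07 without DMSO 20, DOX 19 and DOX 21). With at least 10 counts in every library Xkr8 was not tested.

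The count of called genes, 25 in the report, was 0 with edgeR, 16 with at least 10 counts in every library, 48 without the Cook filter, 51 without DMSO 20 and DOX 19, and 14 (without DMSO 3) to 75 (without DMSO 15) when each library was left out (48 without DMSO 20, 38 without DOX 21). The lists had 0 calls under every alternative. Of the 15 pairs of levels, 14 to 15 passed when each library was left out. With 1 transcript per gene the mean log2 level difference was 0.08 for Plscr1 minus Plscr2 and -0.07 for Plscr3 minus Ano6. The share of the longer Plscr2 transcript was 50.0004% by counts (50.0002% to 50.0004% when each library was left out) and 49.9345% by TPM, which divides by its greater length. The causes of the other changes were not tested. The intervals of Xkr8 and Plscr4 are the widest of the 5 tested members.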
